A study of Mus musculus with 3 samples.

Results

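The genes described here are 10 contractile, calcium-buffering and energy genes whose products are typical of skeletal muscle, measured in adult mouse heart. They are Acta1, Tnnt1, Tnnt3, Tnni2, Tnnc2, Mylpf, Mybpc2, Myh4, Pvalb and Ckm. They were chosen by name, taking every gene probe of the array annotated with one of these symbols. That gave 12 probes, with Tnnt3 and Myh4 read by 2 probes each. All 12 were bright enough to be tested, among 29576 tested probes of 20603 genes.

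The data are 3 two-color arrays of whole mouse genome probes of 60 bases. On each array, RNA of Lrrc10-/- hearts carried the red dye Cy5 and RNA of WT (Lrrc10+/+) hearts carried the green dye Cy3, according to the labels. The mice were C57/BL6 adults 2 months old. The RNA of each genotype was pooled from 2 hearts, and Lrrc10-/- mice lack LRRC10, a leucine-rich repeat protein of cardiomyocytes. The methods call the 3 arrays independent biological replicates, and no array had its dyes exchanged, so dye and genotype cannot be told apart for any gene.

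Striated muscle contracts when calcium binds troponin on the thin filament, which lets myosin heads on the thick filament pull on actin. Heart, fast skeletal and slow skeletal muscle each build this machine from their own isoforms of actin, troponin, myosin and myosin binding protein. Skeletal isoforms such as Acta1 are part of the fetal heart program, can return in a stressed ventricle, and Acta1 and Ckm are also expressed in the normal adult heart.

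The deleted gene was examined first, because it checks the labels. The log2 ratio of Cy5 over Cy3 at the Lrrc10 probe was 4.91 on array 1, 5.56 on array 2 and 5.65 on array 3. Lrrc10 was thus far brighter in the channel labelled Lrrc10-/- than in the channel labelled WT, with a mean of 5.37 ± 0.41 (SD, n = 3 arrays) and an adjusted p of 0.000251 by limma. This goes against the labels, so directions are given below by dye only, where Cy5 carries the Lrrc10-/- label and Cy3 the WT label, and a difference read by the labels runs opposite to the directions the study gives.

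The 3 arrays agreed poorly with each other. Pearson's r of the log2 ratios between pairs of arrays, across probes, which are not independent replicates, ran from -0.18 to 0.10. Between 28942 and 30810 of the 43379 gene spots of an array were well above background in a channel. The heart label fitted the data in that all 8 markers of ventricle and cardiomyocytes were bright, and the brightest probes of Tnnt2, Myl2 and Mybpc3 reached the scanner's limit in both channels of every array. Other cells' markers varied between arrays. The atrial myosin light chain Myl7 had log2 ratios of -0.21, 3.41 and -1.27 on arrays 1, 2 and 3, and the fat-cell gene Cfd had ratios of 2.26, -0.28 and -1.91. Their part in the results below was not tested. In pooled tissue, fewer cells of a type and less RNA per cell cannot be told apart.

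The probe sequences matter for this gene set, because the members belong to families with near relatives in the heart. The troponin T and actin probes are shown to let their targets be identified, 5′ to 3′ as printed on the array.
Acta1: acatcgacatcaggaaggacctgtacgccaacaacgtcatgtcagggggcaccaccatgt
Tnnt1: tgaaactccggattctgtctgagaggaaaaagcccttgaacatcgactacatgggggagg
Tnnt3, brighter probe: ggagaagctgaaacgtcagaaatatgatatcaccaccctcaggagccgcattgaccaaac
Tnnt3, dimmer probe: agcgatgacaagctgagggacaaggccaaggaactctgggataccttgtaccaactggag
Compared without gaps with each of the 41174 probes of the array, over at least 30 bases, none of the Acta1, Tnnt3, Tnni2, Tnnc2, Mylpf, Mybpc2 and Pvalb probes shared 70% of its bases with another. Tnnt1 shared 21 of 30 bases with an unnamed probe. The closest matches to other probes were in the creatine kinases and myosin heavy chains, and those pairs are printed with the values of Ckm and Myh4. Probes were compared only with other probes. Whether a member's probe also matches the transcript of a heart relative, such as Actc1 for Acta1, was not tested.

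No member passed the test across all probes. By limma with Benjamini-Hochberg adjustment, 0 of the 10 genes were called at an adjusted p under 0.05, where 0.00971% of all tested genes were called. At an unadjusted p under 0.05, 3 of 10 members passed, all brighter in Cy3, against 1.77% of all genes in that direction and 3.32% in either. The methods' t-test gave 1 member at an unadjusted p under 0.05, where 1244 of the 29576 tested probes passed. After adjustment it called 0 members, and 0 of all tested probes. An exact sign test over 3 arrays cannot go below a two-sided p of 0.25, so none was run.

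The study's methods select probes by a p under 0.05, a processed signal of at least 20 and a ratio of at least 1.2 in the same direction on all 3 arrays. The source of that p is not fully described, so the selection was applied here with the p-value that the scanner software gave each spot, required on every array. Tnnt1 was the only member to pass this version, in the Cy3 direction, which 0.607% of all genes passed. No member passed in the Cy5 direction, which 0.442% of all genes passed. The count in Cy3 was 0 after background correction by normexp with median centring, where 0.0388% of all genes passed. It was 2 without array 3, when Ckm also passed, and there 2.26% of all genes did. Without the p criterion, Tnnt1, Mybpc2 and Pvalb passed in the Cy3 direction, where 2.22% of all genes did, and no member passed in the Cy5 direction, where 1.6% of genes did.

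Of the members, 4 lay on one side of 0 throughout, each on the Cy3 side. Tnnt1, Tnnc2, Mybpc2 and Pvalb were brighter in Cy3 on all 3 arrays, where 12.2% of all tested genes were. None was brighter in Cy5 on all arrays, where 9.47% of genes were. Normexp with median centring moved the median over all genes towards Cy5. Under it, 2 members lay on the Cy3 side, where 11.0% of all genes did, and 3 on the Cy5 side, where 42.6% did. The other 6 members changed sign between arrays. The median over the members of the mean log2 ratio was -0.16, beside -0.01 over all tested genes. After that centring, the median over all tested genes was 0.18 and that of the members was 0.068.

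**Figure D1:**
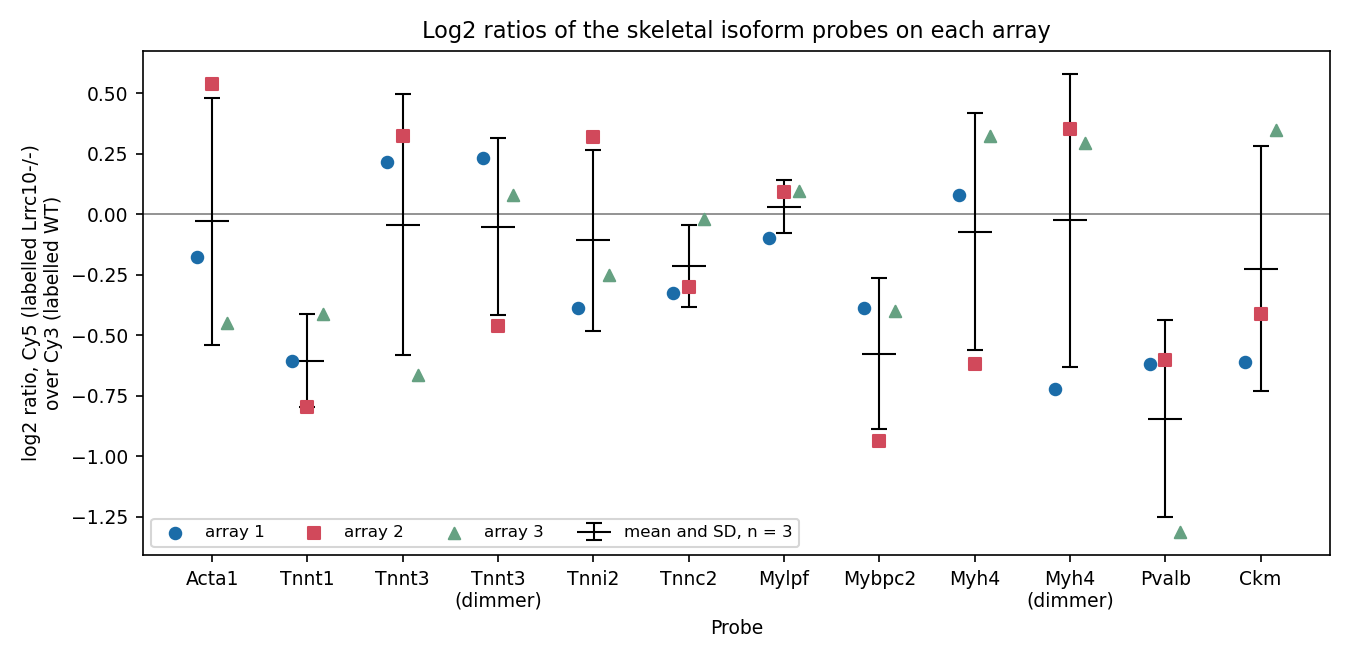
Log2 ratio of the Cy5 to the Cy3 channel for each of the 12 probes on each of the 3 arrays, with black bars for the mean and SD over arrays. Tnnt1, Tnnc2, Mybpc2 and Pvalb lie below 0 on every array, while Acta1 runs from -0.45 to 0.54.

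Of the thin filament genes, Tnnt1 had the largest mean difference. Tnnt1 encodes slow skeletal troponin T, which ties the troponin complex to tropomyosin, and lies at chr7:4504569-4515975 of the GRCm38.p6 assembly. Its processed signal in Cy3 was 7303, 9847 and 5163 on arrays 1, 2 and 3, and in Cy5 it was 4792, 5673 and 3878. The Cy3 signal was the higher of the pair on each array. The log2 ratios of -0.61, -0.80 and -0.41 gave a mean of -0.61 ± 0.19 (SD, n = 3), a 1.52-fold higher signal in Cy3, with an unadjusted p of 0.0108 and an adjusted p of 1.00 by limma. Single-array p-values of the scanner software were 0.00404, 0.00024 and 0.0466. The direction of Tnnt1 held under every alternative tried, with means from -0.81 to -0.41.

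Tnnt3 encodes fast skeletal troponin T and did not share this pattern. Its brighter probe gave log2 ratios of 0.21, 0.32 and -0.66, so that array 3 stood apart from the others. Its dimmer probe gave 0.23, -0.46 and 0.08, with Cy3 not well above background on any array. The dimmer probe therefore could not check the brighter one. The means of -0.04 and -0.05 were smaller than the SDs of 0.54 and 0.37. Tnnt2, the cardiac troponin T, was saturated in both channels of all arrays at its brighter probe, so no ratio is given for that probe. Its dimmer probe, which was not saturated, gave -1.49, 0.58 and 0.65.

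Acta1, the skeletal α-actin of the thin filament, had the widest range of ratios among the brightest probes. Its processed signal in Cy3 was 11873, 12643 and 19178, and in Cy5 it was 10512, 18347 and 14036. Array 2 was brighter in Cy5 and arrays 1 and 3 in Cy3, with log2 ratios of 0.54, -0.18 and -0.45. The scanner software gave p-values of 0.0105 on array 2 and 0.0305 on array 3, in opposite directions. The mean of -0.03 ± 0.51 (SD, n = 3) had an adjusted p of 1.00 by limma, and its sign turned with the scaling, to 0.034 with normexp and loess and 0.48 with normexp and median centring, where the median over all genes was 0.18. The cardiac α-actin Actc1 had log2 ratios of 0.31, -0.55 and -0.21, with a saturated Cy5 signal on array 3.

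Tnni2, the fast skeletal troponin I that holds actin and myosin apart at low calcium, had the same sign as Acta1 on each array. Its log2 ratios were -0.39, 0.32 and -0.25. The mean of -0.11 ± 0.37 (SD, n = 3) was within the spread, and it was 0.077 after normexp with median centring, below the median of 0.18 over all genes. Tnni2 and Tnnt3 are neighbors on chromosome 7, with 54361 bases between them.

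Tnnc2, the fast skeletal troponin C that binds calcium, had signals of 511, 683 and 532 in Cy3 and of 408, 553 and 524 in Cy5. Cy3 was higher on each array, but on array 3 only barely. The log2 ratios of -0.32, -0.30 and -0.02 gave a mean of -0.22 ± 0.17 (SD, n = 3) with an unadjusted p of 0.323 by limma. Tnnc1, the cardiac and slow skeletal troponin C, had ratios of 0.10, 0.08 and 0.27, on the other side of 0. The difference between the genes was not tested.

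Of the thick filament genes, Mybpc2 came closest to Tnnt1. Mybpc2 encodes fast skeletal myosin binding protein C, which braces the thick filament and tunes myosin's access to actin. Its signal in Cy3 was 5545, 9793 and 5161, and in Cy5 it was 4232, 5111 and 3907. Cy3 was higher on every array, most of all on array 2. The log2 ratios of -0.39, -0.94 and -0.40 gave a mean of -0.58 ± 0.31 (SD, n = 3), a 1.49-fold higher signal in Cy3. limma gave an unadjusted p of 0.0191 and an adjusted p of 1.00. The single-array p-values were 0.0598, 2.25e-05 and 0.0527, so on arrays 1 and 3 Mybpc2 missed the p criterion as it was applied here. Its mean was 0.058 after normexp with median centring, still below the median of 0.18 over all genes under that scaling.

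Mylpf, the regulatory light chain of fast skeletal myosin, had the narrowest range of ratios. Its signals lay between 165 and 254 in Cy3 and between 176 and 271 in Cy5. The log2 ratios of -0.10, 0.09 and 0.10 had a mean of 0.03 ± 0.11 (SD, n = 3), and it had the smallest SD of the 12 probes. Its cardiac counterpart Myl2 was saturated in both channels of all arrays.

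Pvalb, the calcium buffer parvalbumin that speeds the relaxation of fast fibers, had the largest mean difference of the set at a low signal. In Cy3 it read 49.6, 51.8 and 55.3, and in Cy5 it read 32.3, 34.1 and 22.2. All 3 Cy3 values exceeded all 3 Cy5 values, and the probe was well above background in both channels of every array. The log2 ratios of -0.62, -0.60 and -1.32 gave a mean of -0.85 ± 0.41 (SD, n = 3), a 1.80-fold higher signal in Cy3, with an unadjusted p of 0.0322 and an adjusted p of 1.00 by limma. The means under the alternatives ran from -0.97, without array 2, to -0.10, with normexp and loess, and a minimum signal of 50 removed the probe.

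Once the channels were put on a common scale by quantile normalization of their average intensity, Tnnt1, Mybpc2 and Pvalb had all 3 Cy3 levels above all 3 Cy5 levels, 3 of 10 members where 4.55% of all genes did. No member had the reverse, which 3.56% of genes had. The log2 level of Tnnt1 was 12.54 to 12.97 in Cy3 and 12.12 to 12.37 in Cy5. That of Mybpc2 was 12.54 to 12.91 in Cy3 and 11.97 to 12.18 in Cy5. The channels of the other members overlapped.

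**Figure D2:**
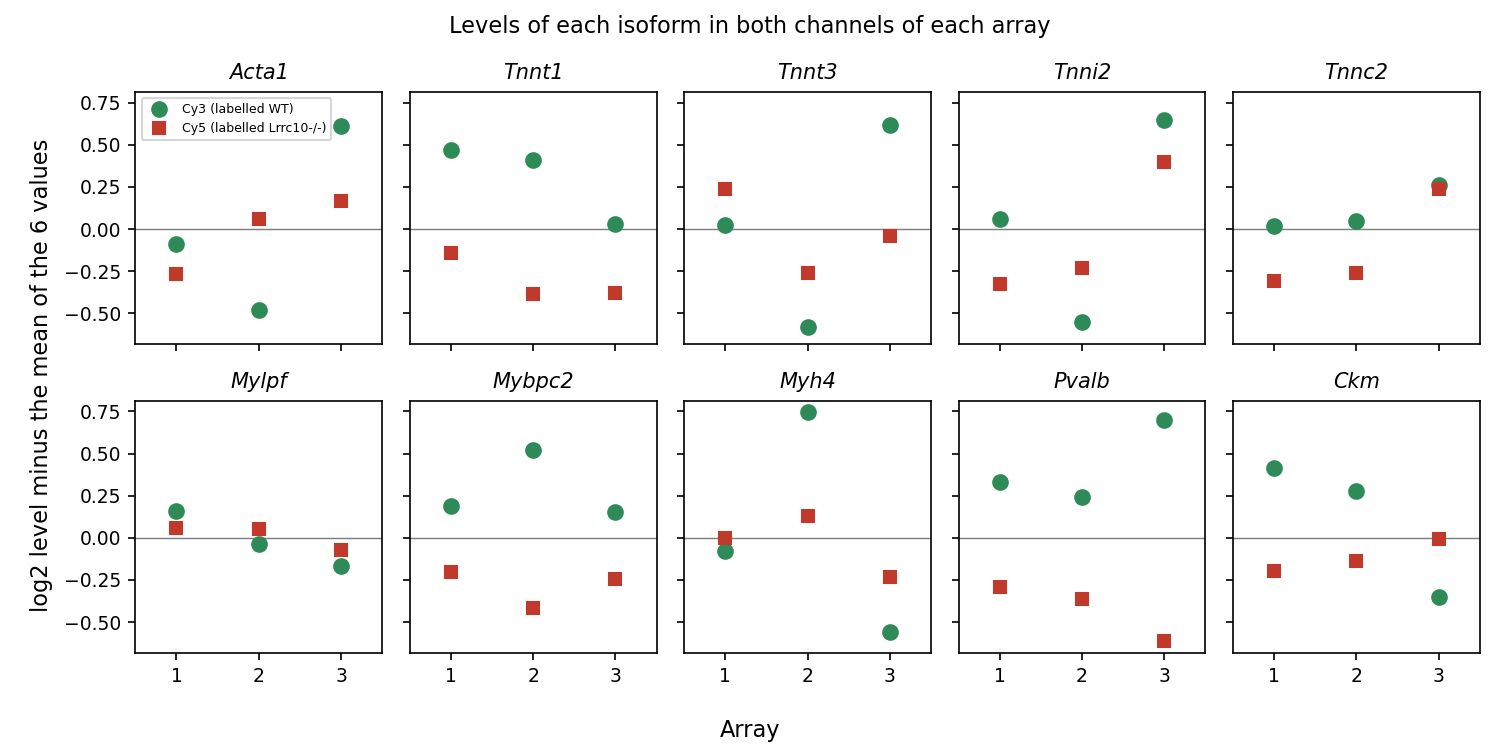
Log2 level of each member's brightest probe in Cy3 (green circles) and Cy5 (red squares) of each array, after quantile normalization of average intensities, minus the mean of its 6 values. Tnnt1, Mybpc2 and Pvalb are separated by channel, while the Cy3 values of Acta1, Tnnt3 and Tnni2 move between arrays over more than 1 log2 unit.

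The spread came more from Cy3 than from Cy5. The SD of the log2 level between arrays was larger in Cy3 for 9 of the 10 members, and for 78.2% of all tested probes. The median SD of the members was 0.33 in Cy3 and 0.18 in Cy5, beside 0.38 and 0.21 over all tested probes. Tnnc2 was the exception, at 0.13 in Cy3 and 0.30 in Cy5.

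Acta1, Tnnt3, Tnni2 and Pvalb shared an order in Cy3, with array 2 lowest and array 3 highest. The Cy3 log2 level of Acta1 was 13.69, 13.30 and 14.39. That of Tnnt3 was 6.11, 5.50 and 6.71, and that of Tnni2 was 10.43, 9.82 and 11.02. Pvalb moved less, at 5.61, 5.52 and 5.98. The dimmer Myh4 probe had the same order, at 5.03, 4.76 and 5.61, but was not well above background in Cy3 on array 2. Ckm and the brighter Myh4 probe were instead lowest on array 3, with Cy3 levels of 15.76, 15.63 and 15.00 for Ckm and of 17.06, 17.89 and 16.58 for Myh4. Cy5 levels of Acta1 kept within 13.51 to 13.94 and those of Ckm within 15.15 to 15.34. Levels are set side by side within a probe only, since different probes do not share a scale.

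**Figure D3:**
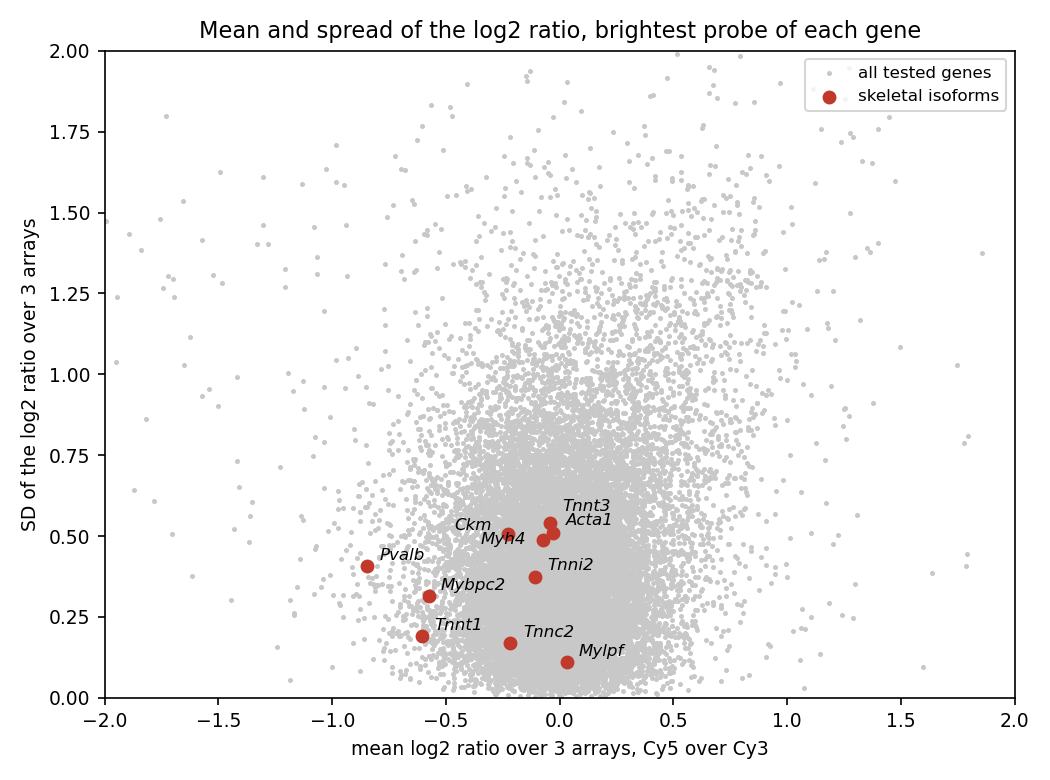
Mean log2 ratio (Cy5 over Cy3) against its SD over the 3 arrays for the brightest probe of each of the 20603 tested genes in grey, 80 of which fall outside the axes, with the 10 members in red. Pvalb, Tnnt1 and Mybpc2 lie on the left, and 5 members have SDs of 0.37 to 0.54 with means between -0.23 and -0.03.

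Ckm encodes the muscle creatine kinase, which regenerates ATP beside the myofibrils. Its processed signal in Cy3 was 49569, 60378 and 30107, and in Cy5 it was 32410, 45326 and 38280. Cy3 was higher on arrays 1 and 2 and lower on array 3. The log2 ratios of -0.61, -0.41 and 0.35 gave a mean of -0.23 ± 0.51 (SD, n = 3), with an unadjusted p of 0.359 by limma, and the mean was 0.13 after normexp with median centring, below the median of 0.18 over all genes.

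The Ckm probe and a probe of Ckb, the brain-type creatine kinase, lie on matching stretches of their genes. Aligned without gaps they share 45 of 56 bases, with a longest identical run of 8, and shared bases are in capitals.
Ckm: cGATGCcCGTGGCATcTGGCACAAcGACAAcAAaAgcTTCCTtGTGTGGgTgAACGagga
Ckb, dimmer probe: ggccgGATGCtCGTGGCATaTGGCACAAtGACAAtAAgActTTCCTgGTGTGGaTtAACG
This Ckb probe had log2 ratios of -0.75, -0.42 and 0.36, close to those of Ckm on arrays 2 and 3 and on the same side of 0 on each array. The other Ckb probe, which shared under 70% of its bases with the Ckm probe, had ratios of -0.34, -0.42 and -0.03. Whether one transcript contributes to the signal of the other gene's probe was not tested. Ckmt2, the sarcomeric mitochondrial creatine kinase, had a saturated Cy5 signal on every array and a saturated Cy3 signal on 2.

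Myh4 encodes the myosin heavy chain of the fastest (2B) fibers, and neither of its probes gave a clear ratio on every array. The brighter probe had a mean processed signal of 149306, and it was saturated in Cy5 on arrays 1 and 3 and in Cy3 on array 2. The dimmer probe had a mean signal of 34.8 and was not well above background in Cy5 on array 1 or in Cy3 on array 2. The brighter probe gave log2 ratios of 0.08, -0.62 and 0.32, while the dimmer gave -0.72, 0.35 and 0.29. On arrays 1 and 2 the signs differed, but there the brighter probe was saturated in one channel and the dimmer one was near background in one channel, so the probes could not be compared. Neither mean, -0.07 and -0.03, exceeded its SD of 0.49 and 0.61.

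The brighter Myh4 probe also matches a probe of Myh3, the embryonic myosin heavy chain, at 40 of 55 bases, in capitals below. A second Myh3 probe overlaps it at 28 of 37 bases, and a probe of Bbs5, a gene of another family, at 21 of 30.
Myh4, brighter probe: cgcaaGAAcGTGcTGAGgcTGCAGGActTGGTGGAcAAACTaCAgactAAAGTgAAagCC
Myh3: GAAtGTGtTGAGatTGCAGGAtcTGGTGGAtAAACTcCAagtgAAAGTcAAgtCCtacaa
This Myh3 probe had a mean signal of 74.0 and gave ratios of 0.01, -1.98 and 0.57, with array 2 lowest. The brighter Myh4 probe was saturated in Cy3 on that array. No Myh6 or Myh7 probe shared 70% of its bases with it, and transcripts were not compared. The cardiac myosin heavy chain Myh6 had ratios of 0.03, -0.48 and 1.45, but it was saturated in Cy3 on array 2 and in Cy5 on array 3. Myh7, the β-myosin of slow fibers and the fetal ventricle, was brighter in Cy3 on all arrays, at -1.99, -2.58 and -0.88, with an adjusted p of 0.648 by limma, and its Cy3 signal was saturated on array 2. Its dimmer probe, which was not saturated, gave -2.14, -3.45 and -0.90. The part of other myosin transcripts in the Myh4 signal was not tested.

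**Figure D4:**
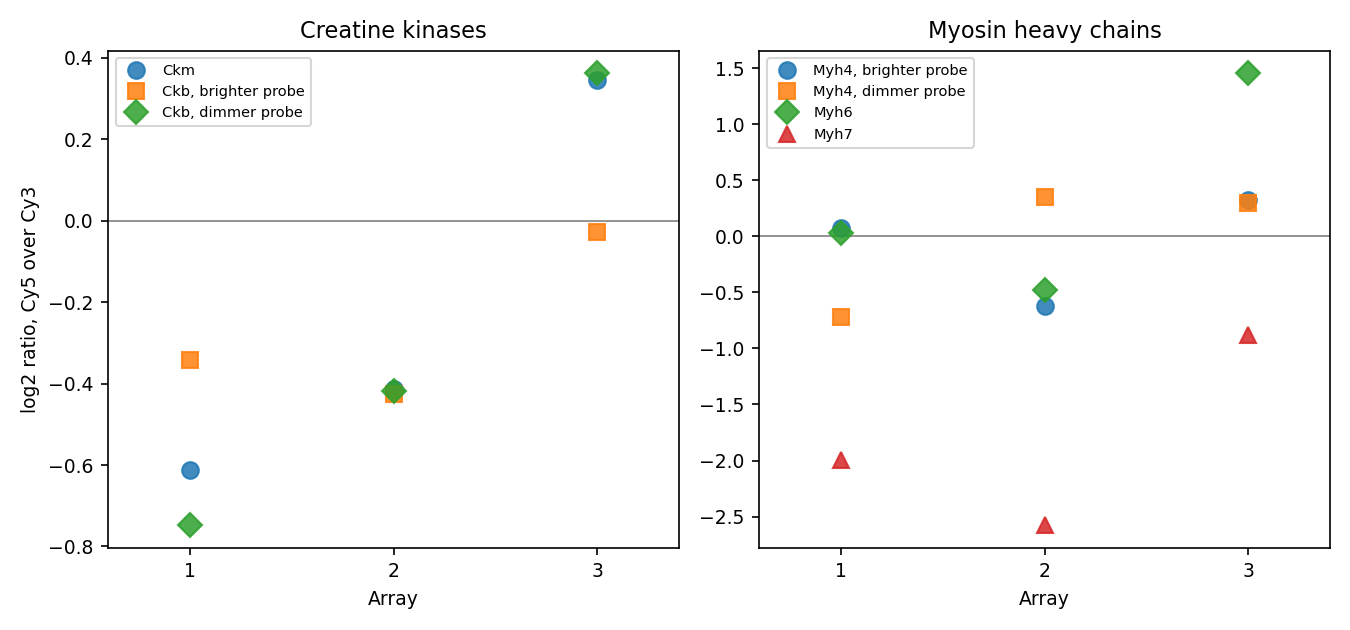
Log2 ratio of Cy5 over Cy3 on each array for the creatine kinase probes (left) and for myosin heavy chain probes (right). Ckm and the dimmer Ckb probe lie together on arrays 2 and 3, and the brighter Myh4 probe is saturated in one channel of each array.

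A further 30 genes typical of skeletal muscle were examined in the same way, and 24 had a probe bright enough to test. The remaining 6 were not well above background in any channel of any array. These were Actn3 (fast-fiber α-actinin), Mybpc1 (slow myosin binding protein C), Cacng1 (a subunit of the skeletal calcium channel), Ampd1 (muscle AMP deaminase) and the muscle transcription factors Myog and Myf5. Of the 24, 3 were brighter in Cy5 on all arrays, where 9.47% of all genes were, 3 in Cy3, where 12.2% were, and 18 changed sign. limma called 0 of the 24 after adjustment and 1 at an unadjusted p under 0.05, where 3.32% of all genes passed. These counts were near those shares. The median of their mean log2 ratios was -0.07.

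That gene was Casq1, the calcium store protein of the fast sarcoplasmic reticulum. Its log2 ratios were -1.13, -1.40 and -0.39, brighter in Cy3 on all arrays, with a mean of -0.97 ± 0.52 (SD, n = 3), an unadjusted p of 0.00806 and an adjusted p of 1.00 by limma. In the Cy5 direction, Jph1, a junctophilin that joins the surface and reticulum membranes, had ratios of 0.49, 0.14 and 0.48. Tpm2, the β-tropomyosin, had ratios of 0.76, 0.02 and 0.11, and Trdn, the calcium-release scaffold triadin, had 0.00, 0.37 and 0.00. At the brightest probes of this pair, ratios were near 0 on all but array 1 for Tpm2 and array 2 for Trdn. Dimmer Trdn probes gave -0.10, 0.49 and 0.38, then 0.38, 0.99 and 0.18, then 0.06, 0.92 and 0.25. The dimmer Tpm2 probe gave 0.56, -0.10 and 0.22, and the dimmer Jph1 probe changed sign, at 0.30, -0.73 and 0.67. Eno3 and Myh8 were the others on the Cy3 side, but their Cy5 signal was saturated on every array.

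By role, the contractile list had 10 tested genes, of which 1 lay on the Cy5 side and 1 on the Cy3 side on all arrays. The calcium list had 6, with 2 in Cy5 and 1 in Cy3, and the energy list had 4, with 0 and 1. The lineage list had 4, all of which changed sign. Among them Chrna1, a subunit of the muscle acetylcholine receptor, ran from -1.15 to 1.63. Myl1, the fast skeletal essential light chain, had ratios of -0.14, 1.01 and -0.12 at its brighter probe, with array 2 apart. Its dimmer probe gave -0.53, 1.24 and 0.46. On array 2 the atrial genes Myl7 and Sln had ratios of 3.41 and 3.69.

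**Figure D5:**
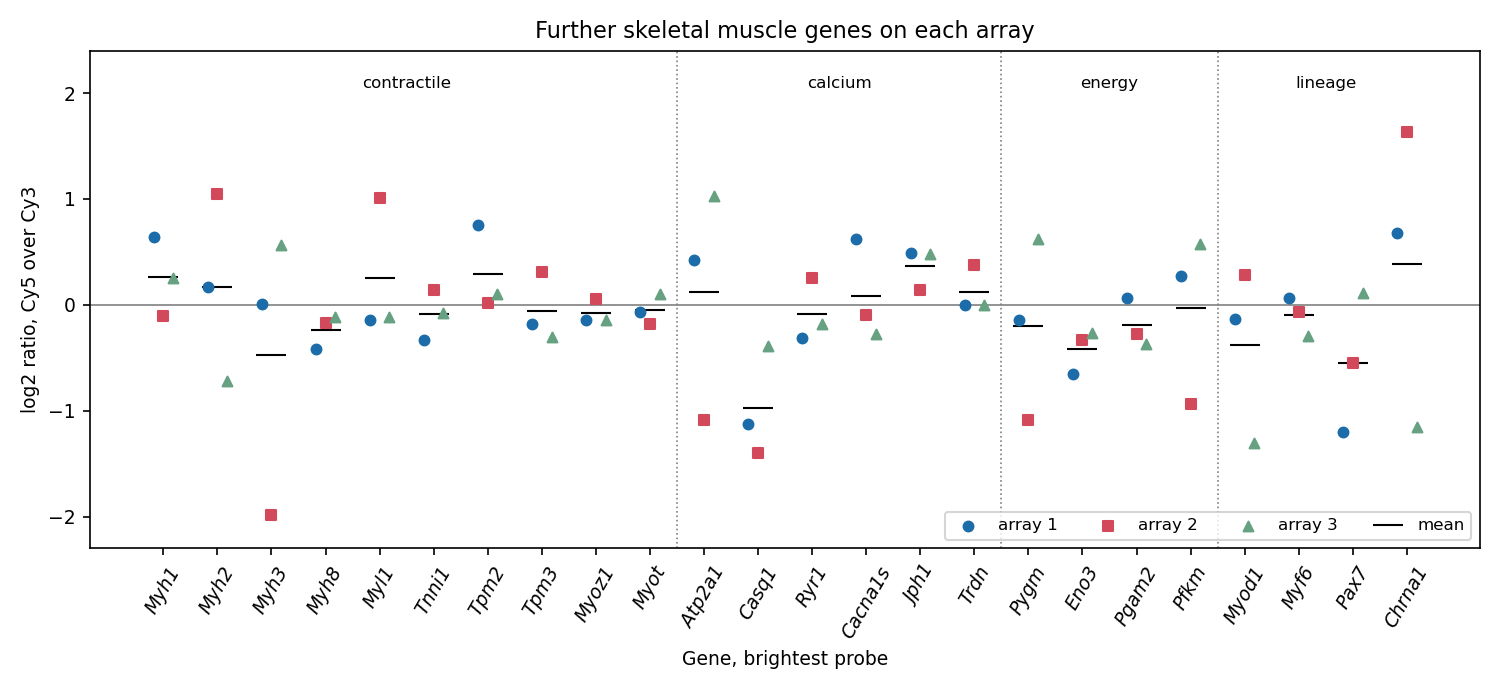
Log2 ratio of Cy5 over Cy3 on each array for the brightest probe of the 24 further skeletal muscle genes that could be tested, grouped by role, with the mean as a black bar. Casq1 lies lowest by its mean, at -0.97, and most genes straddle 0.

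Across the other marker lists, the direction shared by Tnnt1, Mybpc2 and Pvalb was also that of Nppa, the atrial natriuretic peptide of stressed ventricle. Nppa had log2 ratios of -0.89, -0.61 and -0.82. The heart list had 4 of 8 genes brighter in Cy3 on all arrays (12.2% of all genes), and 0 brighter in Cy5, and the Cy5 signal of these 4 was saturated on every array. The smooth muscle list had 1 of 4 genes brighter in Cy5 on all arrays (9.47% of all genes), and the endothelium and red blood cell lists had none on one side throughout. The fat list had 1 of 4 tested genes brighter in Cy3 on all arrays (12.2% of all genes), Cidea, at -0.23, -0.09 and -0.34. The summed log2 level of the atrial list was 16.29 to 16.89 in Cy3 and 15.47 to 16.11 in Cy5, and Nppa made up nearly all of it. The other atrial genes Myl4, Myl7 and Sln had positive mean log2 ratios, of 0.51, 0.64 and 0.88, and the median of the list was 0.58. These positive values rest on array 2, since the list's median ratio was -0.16 on array 1, 2.41 on array 2 and -0.98 on array 3. The summed level of the fat list was 14.57 to 14.90 in Cy3 and 14.35 to 14.59 in Cy5, and Cidea made up nearly all of it. The fat genes Adipoq, Plin1 and Cfd were dim, Adipoq and Plin1 changed sign between arrays as Cfd did, and Lep and Ucp1 were not well above background. Their part in the members' differences was not tested.

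The genes with the most similar ratios to Acta1, the member with the widest range, were AK037291, Egfl7, BB009967, Ndufaf6 and BE980334. Their root mean square difference from Acta1 over the 3 arrays was 0.018 to 0.029, out of 20593 genes searched. With 3 values a gene, such likeness is a description of these arrays.

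The members are grouped in the genome, with 6 of 10 on chromosome 7 (Tnnt1, Tnnt3, Tnni2, Mylpf, Mybpc2 and Ckm), which holds 9.27% of protein-coding genes in the RefSeq table. RefSeq promoter sequence was used for 8 members, from 9 start sites. Short motifs bound by factors active in muscle, and the general TATAAA motif, were searched on both strands of the 250 bases before each start. The E-box CANNTG, read by MyoD family factors, was found before 8 of the 9 starts and in 66.2% of the 32851 promoters of the table. The M-CAT motif CATTCC was found before Acta1, Mybpc2 and Myh4, and in 12.6% of all promoters. A MEF2 motif was found before Myh4 and Pvalb (2.92% of all), a CArG box before Acta1 and Myh4 (1.47% of all), and TATAAA before Acta1, Myh4 and Tnnt1 (12.4% of all). Motif classes could overlap within a promoter.

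The promoters of the 3 members whose channels did not overlap are shown, with every motif match in capitals, from GRCm38.p6 and in the direction of the gene, each on the minus strand.
Tnnt1, chr7:4515976-4516225: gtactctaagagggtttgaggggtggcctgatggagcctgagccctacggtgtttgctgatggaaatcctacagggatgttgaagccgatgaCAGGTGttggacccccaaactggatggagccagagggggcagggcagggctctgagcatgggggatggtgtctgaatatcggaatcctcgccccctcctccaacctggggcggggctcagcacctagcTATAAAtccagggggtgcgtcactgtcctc
Mybpc2, chr7:44524670-44524919: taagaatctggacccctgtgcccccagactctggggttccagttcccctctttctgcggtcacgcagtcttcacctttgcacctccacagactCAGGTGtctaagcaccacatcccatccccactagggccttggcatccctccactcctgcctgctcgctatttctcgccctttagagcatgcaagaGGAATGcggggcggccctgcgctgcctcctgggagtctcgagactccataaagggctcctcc
Pvalb, chr15:78206401-78206650: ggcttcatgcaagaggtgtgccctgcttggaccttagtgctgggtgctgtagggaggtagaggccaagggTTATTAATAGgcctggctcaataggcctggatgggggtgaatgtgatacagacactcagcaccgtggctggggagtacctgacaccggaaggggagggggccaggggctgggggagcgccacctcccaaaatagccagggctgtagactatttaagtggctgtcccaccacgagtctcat
Tnnt1 and Mybpc2 each hold 1 E-box, starting 158 and 157 bases before the start site. This Pvalb start holds a MEF2 motif, 180 bases before it, and no E-box, whereas the other Pvalb start holds 1 E-box. A match describes the sequence and was not tested for binding, and these motifs are found before members with and without a steady difference.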

How the data were processed

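The 3 files of scanner output were made by the authors with Agilent Feature Extraction 9.1.3.1, which subtracted a local background, corrected the dyes within each array and deposited, for each spot, the log10 ratio of Cy5 over Cy3, its p-value and the processed intensity of each channel. The log10 ratios deposited were turned into log2, control spots and outlier flags were left out, and spots of one probe were averaged. Probes with a mean processed signal of at least 20 were tested with limma 3.58.1 in R 4.3.3, with an intensity trend, on 3 arrays, and p-values were adjusted over all tested probes. The fit was tested on simulated data. The brightest probe stood for a gene in counts. Channel levels were set on a common scale by quantile normalization of average intensity (Aquantile). The 3 arrays were treated as being on the same slide and in the same scan, so no batch was compared. Of 41174 probes, 24844 were named by RefSeq accession and the rest kept the name in the file. All 12 member probes are described, with Lrrc10, the heart counterparts of the members and, from the further skeletal muscle list, up to 6 genes with the largest mean ratio among those of one sign on all arrays. The 5 genes most like the member of widest range were also named. The deposited table of ratios held the same values as the scanner files, apart from 1 value missing on array 1. Alternatives were normexp (offset 50) with loess or median centring, other signal minimums, left-out saturated probes or arrays, no trend and the methods' t-test. The number of arrays limits the precision. The members and lists were chosen with earlier results of these data known.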

Additional observations from a re-analysis of the deposited data

How the results depend on the processing

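The limma count of 0 members held under every alternative run. The Cy3 count of the study's selection was 1 gene (0.607% of all genes). It was 0 with normexp and median centring (0.0388%) and 3 without the p criterion (2.22%). When an array was left out, it was 1 to 2 (1.67% to 2.51%). The count of members on the Cy5 side on all arrays, 0, was 1 with normexp and loess (16.1% of all genes), 3 with normexp and median centring (42.6%) and 1 without any one array (20.8% to 24.5%). The Cy3 count of 4 was 2 with normexp and median centring (11.0%), 3 of 9 with a minimum signal of 50 (12.4%) and 4 to 6 when an array was left out (21.5% to 29.1%). The median over the members, -0.16, was 0.068 with normexp and median centring, -0.11 with a minimum signal of 50, and -0.29 to -0.15 when an array was left out. Reading Myh4 by its dimmer probe, chosen after seeing the data, moved no count.

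Some means changed sign. With normexp and loess, Acta1 was 0.034, the brighter Myh4 probe 0.19 and the dimmer Tnnt3 probe 0.047. With normexp and median centring, Acta1 was 0.48, Tnni2 0.077, Ckm 0.13, Mybpc2 0.058 and the brighter Myh4 probe 0.66, but the median over all genes was 0.18 in that setting, and Tnni2, Ckm and Mybpc2 stayed below it. When each array was left out in turn, Acta1 ran from -0.31 to 0.18, Tnni2 from -0.32 to 0.032 and Mylpf from -0.0029 to 0.094. The brighter Tnnt3 probe ran from -0.23 to 0.27 and the dimmer from -0.19 to 0.15. The brighter Myh4 probe ran from -0.27 to 0.20 and the dimmer from -0.21 to 0.32. The cause was not tested. Tnnt1, Tnnc2 and Pvalb kept their direction under every alternative that tested them. Each array holds both channels, so the tested ratios were already paired by array.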
